A study of Mus musculus with 18 samples.

Results

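Accessible chromatin was compared between haematopoietic stem cells (HSC) of wild-type mice given repeated 5-fluorouracil and HSC of wild-type mice given vehicle. The samples were chosen by their labels: 4 titled as 3 cycles of 5-fluorouracil and 4 titled as vehicle controls, 8 of the 18 samples of the series. All 8 came from mice of 16 weeks. The treated mice had received 150 mg/kg of 5-fluorouracil (5-FU) every 3 weeks for 3 injections, and the controls phosphate-buffered saline (PBS) on the same schedule. The other 10 samples, from mice of 8 weeks with no injection named, were used only for look-up: 2 of HSC and 2 of HPC (progenitors) labelled Kmt2c -/-, from a conditional knockout whose Cre driver the labels do not name, and 2 of HSC and 4 of HPC from wild-type mice. The 4 samples of each 16-week group share 1 pooled list of accessible regions in the files used here, so nothing measured the spread between mice, no test across samples was possible, and counts and values below compare those 2 lists. Neither the time between the last injection and the collection of the cells nor the surface markers of the sort is given in the labels.

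HSC sit mostly in quiescence in the bone marrow and give rise to all blood lineages. 5-Fluorouracil is a pyrimidine analogue that blocks thymidylate synthesis and kills cycling cells, so it spares most resting HSC, which then divide to rebuild the blood before returning to rest. ATAC-seq inserts sequencing adapters into open DNA with the Tn5 transposase, and a peak caller turns pile-ups of insertions into regions. Such regions are promoters, where transcription starts, or more distant elements such as enhancers, and which enhancers are open differs between stem cells and progenitors.

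The 5-fluorouracil list held 71363 regions covering 49.8 Mb, and the vehicle list 80100 regions covering 55.9 Mb. Their median widths were 640 bp and 635 bp, and the median fold enrichment of a region, the signal at its summit over local background as the authors' peak caller gave it, was 10.4 in the 5-fluorouracil list and 10.2 in the vehicle list. Read depth is not known. At the same fold enrichment, close to 10, the median −log10 p was 104.9 after 5-fluorouracil and 111.7 in vehicle, and this measure grows with depth. Counts are therefore given both for the lists as deposited and at equal number. Equal number means that the vehicle list is limited to its 71363 strongest regions by −log10 p. There, a region only after 5-fluorouracil is one absent from this limited list, so a weaker vehicle region may overlap it.

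The label HSC was set against marker genes. The HSC markers Procr, Hlf, Mecom, Fgd5, Slamf1, Kit and Tek each carried a region within 1 kb of an end of the gene in both lists. Procr, the EPCR receptor by which HSC are often sorted, had a fold enrichment of 16.0 after 5-fluorouracil and 15.2 in vehicle. Markers of mature cells carried such a region less often and at the same genes in both lists: 2 of 10 neutrophil genes in each list, 4 of 10 T and NK cell genes, 4 of 10 macrophage genes, 5 of 10 mast cell and basophil genes, 6 of 10 erythroblast genes and 7 of 10 B cell genes. The ends of Cd3e, Cd8a, Ms4a1, S100a8, S100a9, Adgre1 and C1qa were without a region in both lists. Other mature-cell markers carried regions stronger than that of Procr. Cd3d had a fold enrichment of 28.1 after 5-fluorouracil and 27.1 in vehicle, and Cd2 28.9 and 30.8. Cr2 had 33.3 and 33.0, and Bank1 28.4 and 29.2. Some HSC markers were weak, with 4.66 and 5.97 at Slamf1 and 4.59 and 5.36 at Hlf. For stroma and endothelium the counts were 8 of 10 genes after 5-fluorouracil and 9 of 10 in vehicle, the difference being Cxcl12. The lists come from bulk cells, so fewer cells of a type and less accessibility per cell cannot be told apart.

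Promoters that lay in a region of 1 list only are shown first. Of 17492 protein-coding genes with a promoter window in the RefSeq table, from 250 bases before to 50 after the start, 10579 (60.5%) had a window touched by a 5-fluorouracil region and 10855 (62.1%) one touched by a vehicle region. Here and below, a window is said to lie in a region if they share at least 1 bp, so part of it may lie outside. The window lay in a 5-fluorouracil-only region, one that overlaps no vehicle region, for 57 genes (0.326%). It lay in a vehicle-only region for 332 genes (1.90%). With lists of equal number these counts were 146 and 180. The 3 windows of highest −log10 p that lie wholly inside such a region are shown for each list, with Cdkn2a and Mecom added after their values were seen because both bear on stem cell function. Sequences are from RefSeq GRCm38.p6, the build of the files, 5′ to 3′ on the strand of the gene. Capitals mark matches to the letters of 8 motifs, searched on both strands and allowed to overlap. ETS factors were searched as CCGGAA and RUNX factors as TGTGGT. Factors of the GATA family were searched as GATAAG, and AP-1, the dimer of FOS and JUN proteins, as TGANTCA. C/EBP factors were searched as TTGCNNAA and SP factors as GGGCGG. NF-Y was searched as CCAAT, and the TATA box as TATAAA.

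In 5-fluorouracil-only regions lay the promoters of Csf2rb2, a mouse receptor chain for interleukin-3 (chr15:78305672-78305971, minus strand), P2ry14, a receptor for UDP-glucose found on HSC (chr3:59153443-59153742, minus strand), Pak6, a p21-activated kinase (chr2:118676996-118677295, plus strand), and Cdkn2a, which encodes inhibitors of the cell cycle that act in senescence (chr4:89282143-89282442, minus strand).
Csf2rb2: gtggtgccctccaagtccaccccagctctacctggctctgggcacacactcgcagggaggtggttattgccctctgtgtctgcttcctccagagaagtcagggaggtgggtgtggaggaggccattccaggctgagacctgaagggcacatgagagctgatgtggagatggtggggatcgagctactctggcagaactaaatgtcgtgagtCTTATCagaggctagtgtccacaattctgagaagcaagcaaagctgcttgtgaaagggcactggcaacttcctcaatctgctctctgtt
P2ry14: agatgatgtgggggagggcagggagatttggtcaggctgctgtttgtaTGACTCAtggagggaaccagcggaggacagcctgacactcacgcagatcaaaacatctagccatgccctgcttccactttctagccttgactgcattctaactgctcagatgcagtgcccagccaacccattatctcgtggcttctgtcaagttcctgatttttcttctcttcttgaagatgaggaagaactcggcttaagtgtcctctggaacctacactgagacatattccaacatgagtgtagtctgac
Pak6: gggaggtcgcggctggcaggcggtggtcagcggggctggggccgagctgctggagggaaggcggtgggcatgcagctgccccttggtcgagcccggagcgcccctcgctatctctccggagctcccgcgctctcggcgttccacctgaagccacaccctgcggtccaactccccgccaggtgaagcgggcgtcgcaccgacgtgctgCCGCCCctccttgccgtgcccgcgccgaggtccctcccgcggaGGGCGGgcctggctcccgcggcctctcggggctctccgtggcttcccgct
Cdkn2a: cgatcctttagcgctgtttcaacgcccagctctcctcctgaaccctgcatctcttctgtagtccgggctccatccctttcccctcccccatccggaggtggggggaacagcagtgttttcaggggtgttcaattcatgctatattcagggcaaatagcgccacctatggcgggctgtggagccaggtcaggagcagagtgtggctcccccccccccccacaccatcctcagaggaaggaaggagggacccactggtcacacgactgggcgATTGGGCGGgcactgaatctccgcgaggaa

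The Csf2rb2 region had a fold enrichment of 18.2 in the 5-fluorouracil list and was present in all 4 of the 8-week lists. Csf2rb2 has a near-identical neighbour, Csf2rb, between which reads may be split. The P2ry14 region had 7.29 and was present in both HPC lists and in neither 8-week HSC list. The Pak6 region had 6.46 and was present in the knockout HSC and wild-type HPC lists. The Cdkn2a region had 5.79 and was in none of the 8-week lists. Its strength percentile, the place within its list by −log10 p where 100 is the strongest, was 11.7. The window of P2ry14 holds TGACTCA, an AP-1 match, and that of Csf2rb2 a GATA match.

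In vehicle-only regions lay the promoters of Galntl5, of a glycosyltransferase family and known from the testis (chr5:25181230-25181529, plus strand), Zim1, an imprinted zinc finger gene (chr7:6696383-6696682, minus strand), Tubg2, a gamma tubulin (chr11:101155634-101155933, plus strand), and 1 promoter of Mecom (chr3:30013155-30013454, minus strand), a transcription factor gene that HSC need.
Galntl5: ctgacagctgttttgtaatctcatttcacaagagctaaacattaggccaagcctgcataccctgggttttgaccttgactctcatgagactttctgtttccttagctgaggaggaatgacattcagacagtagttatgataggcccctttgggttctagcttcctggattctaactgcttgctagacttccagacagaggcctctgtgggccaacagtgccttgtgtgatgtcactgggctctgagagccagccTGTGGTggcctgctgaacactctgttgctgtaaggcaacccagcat
Zim1: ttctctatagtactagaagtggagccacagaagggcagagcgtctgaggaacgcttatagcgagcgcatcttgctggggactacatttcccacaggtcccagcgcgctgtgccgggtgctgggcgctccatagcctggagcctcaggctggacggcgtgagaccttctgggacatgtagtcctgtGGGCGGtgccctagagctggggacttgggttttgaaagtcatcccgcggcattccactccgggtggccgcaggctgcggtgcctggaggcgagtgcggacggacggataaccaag
Tubg2: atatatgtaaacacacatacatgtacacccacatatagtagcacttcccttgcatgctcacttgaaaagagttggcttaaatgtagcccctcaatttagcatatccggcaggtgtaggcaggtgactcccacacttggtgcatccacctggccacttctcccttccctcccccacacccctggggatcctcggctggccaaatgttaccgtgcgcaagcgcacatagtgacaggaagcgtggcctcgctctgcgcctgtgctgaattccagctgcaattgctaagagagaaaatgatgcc
Mecom: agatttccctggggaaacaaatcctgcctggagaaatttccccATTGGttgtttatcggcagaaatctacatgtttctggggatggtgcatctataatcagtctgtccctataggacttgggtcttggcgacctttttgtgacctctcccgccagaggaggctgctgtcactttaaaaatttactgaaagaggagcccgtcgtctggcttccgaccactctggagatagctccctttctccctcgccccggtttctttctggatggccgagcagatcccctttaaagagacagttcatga

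The Galntl5 region had a fold enrichment of 16.2 in the vehicle list and the Tubg2 region 14.3, and both were in all 4 of the 8-week lists. The Zim1 region had 16.6 and was in both 8-week HSC lists and in neither HPC list. The Mecom region, inside the gene and 497 kb from its outermost start, had 3.17 and was present in the wild-type HPC list only. It covers 269 of the 300 bases shown. It was not among the vehicle regions left at equal number. Among genes of the lists described below, promoters in 5-fluorouracil-only regions were those of Kdm5b, Fosl2 and Cdkn2a, besides Fcer2a of the B cell markers. Those in vehicle-only regions were of Ccl3, Gpr183, Alas2, Mecom, Batf3, Ppargc1a and Ikzf1, of which Ccl3, Gpr183 and Alas2 were also vehicle-only at equal number.

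The letters of some motifs were more frequent in 1 class of promoter windows. TGANTCA was in 11 of 61 windows in 5-fluorouracil-only regions (18.0%, 95% Wilson interval 10.4 to 29.5), and in 17 of 347 windows in vehicle-only regions (4.90%, 3.08 to 7.70). It was in 4.57% of windows in regions of both lists, 10.6% of windows with no region and 6.99% of all 21263 windows. At equal number, an alternative chosen after seeing the data, the shares were 15.5% (10.7 to 21.9, n = 161) in 5-fluorouracil-only regions and 4.74% (2.51 to 8.76, n = 190) in vehicle-only ones. TTGCNNAA was in 19.7% (11.6 to 31.3) of windows in 5-fluorouracil-only regions and 6.05% (3.99 to 9.07) of those in vehicle-only regions, against 10.2% of all windows. GATAAG was in 14.8% (7.96 to 25.7) and 4.03% (2.42 to 6.66), against 6.92% of all windows. Of windows with no region, 13.8% held TTGCNNAA and 10.5% held GATAAG. As for TGANTCA, these values lie inside the intervals of the 5-fluorouracil-only windows. At equal number the 2 one-list classes came closer for both motifs. TTGCNNAA was then in 10.6% (6.70 to 16.3) and 5.79% (3.26 to 10.1). GATAAG was in 7.45% (4.31 to 12.6) and 4.74% (2.51 to 8.76), and for each motif the intervals overlapped. CCGGAA was in 18.0% (10.4 to 29.5) and 9.51% (6.85 to 13.1), against 18.7% of all windows and 28.1% of windows in regions of both lists. The 5-fluorouracil-only share was thus near that of all windows, and the vehicle-only share lay below it. At equal number the CCGGAA shares were 18.0% (12.8 to 24.7) and 7.89% (4.84 to 12.6). GGGCGG, found in many GC-rich promoters, was in 44.3% (32.5 to 56.7) of windows in 5-fluorouracil-only regions, 51.3% (46.1 to 56.5) of those in vehicle-only regions, 67.0% of those in regions of both lists and 46.2% of all. The other 3 motifs differed less or had overlapping intervals. In 5-fluorouracil-only and vehicle-only regions, TGTGGT was in 14.8% and 11.8% of windows, CCAAT in 32.8% and 32.6%, and TATAAA in 4.92% and 9.80%. Of all windows 15.0%, 38.2% and 12.6% held them. Median GC content was 57.0% in 5-fluorouracil-only regions, 58.7% in vehicle-only regions and 61.7% in regions of both lists. The intervals cover counting error over windows only, and a match is a run of letters, not a bound site. Matches were counted over the whole window, so some may lie outside the region.

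The first comparison asked which regions were in 1 list only. After 5-fluorouracil 4002 of 71363 regions (5.61%, 95% Wilson interval 5.44 to 5.78) overlapped no vehicle region by 1 bp or more, and 12993 of 80100 vehicle regions (16.2%, 16.0 to 16.5) overlapped no 5-fluorouracil region. At equal number 6373 of 71363 regions (8.93%, 8.72 to 9.14) were 5-fluorouracil-only and 6712 of 71363 (9.41%, 9.19 to 9.62) vehicle-only. With lists of the same length and mostly one-to-one overlap these counts come out nearly equal by construction, so they show how many regions differ and not which list has more. Of the 6373 regions only after 5-fluorouracil at equal number, 4002 overlapped no region of the whole vehicle list. The others overlapped a vehicle region below the limit. Taken as 83784 merged loci, 66789 were in both lists.

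Strong regions were almost never in 1 list only. Of the 10000 regions of highest −log10 p in each list, 2 of the 5-fluorouracil regions had no vehicle region and 1 of the vehicle regions had no 5-fluorouracil region. Of the 40000 strongest, 32 after 5-fluorouracil and 98 in vehicle were missing from the other list. The share of the 1000 strongest found among the 1000 strongest of the other list was 92.0% in each direction by −log10 p, and 75.7% by fold enrichment. Most regions in 1 list only were weak, which a rule of presence or absence favours. Of the 4002 regions only after 5-fluorouracil, 3723 were in the lowest of 4 equal strength bands of their list, as were 10797 of the 12993 vehicle-only regions. Their median fold enrichment was 4.72 after 5-fluorouracil and 5.22 in vehicle.

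**Figure D1:**
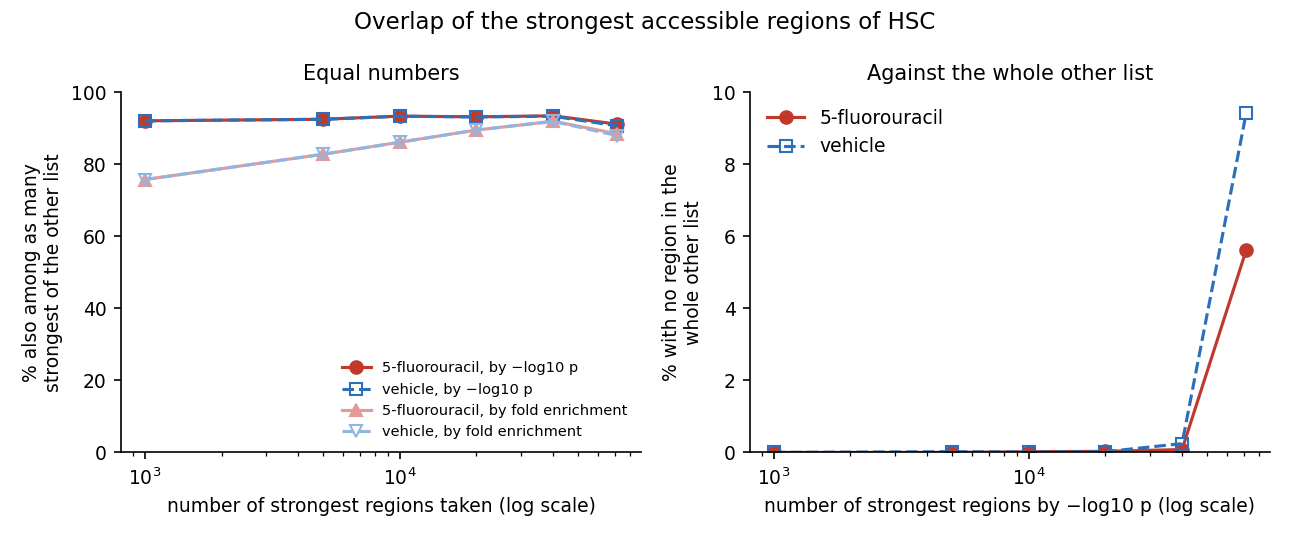
Left, share of the strongest regions of each list (y axis, percent) that overlap a region among as many strongest of the other list, against the number taken (x axis, log scale), for ranking by −log10 p and by fold enrichment. Right, share with no region anywhere in the other list. By −log10 p the left curves stay between 90.6% and 93.4%, and of the 40000 strongest, 32 after 5-fluorouracil and 98 in vehicle have no region in the other list.

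Where regions were shared they were alike in place and in rank. Among 63653 regions with exactly 1 partner in the other list at equal number, the median distance between the summits was 4 bp, and 96.7% of summits lay within 50 bp. Spearman's correlation of the ranks was 0.960 across regions, which are not independent and come from 1 list per group. Shared regions had a median width of 669 bp after 5-fluorouracil and 694 bp in vehicle, and 63.6% were wider in vehicle. Ranks were put on a scale of 100 points, and 17.0% of pairs differed by more than 10 points.

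Regions of 1 list only were narrower and lay away from gene ends. Their median width was 338 bp after 5-fluorouracil and 389 bp in vehicle. Within 1 kb of a gene end lay 6.42% (5.70 to 7.22) of the 5-fluorouracil-only and 7.92% (7.47 to 8.40) of the vehicle-only regions, against 21.9% of the shared regions of each list. Weak regions lie at gene ends less often in any class. In the lowest strength band the shares were 6.55% (5.80 to 7.39) of 5-fluorouracil-only and 7.94% (7.44 to 8.46) of vehicle-only regions, against 11.4% (10.8 to 11.9) of shared regions in the 5-fluorouracil list and 10.7% (10.1 to 11.3) in the vehicle list. Inside a gene body lay 52.2% of the 5-fluorouracil-only and 49.8% of the vehicle-only regions. Across the autosomes and X, the 5-fluorouracil-only share ran between 4.08% of regions on chromosome 7 and 7.86% on X, and the vehicle-only share between 13.5% on chromosome 19 and 18.6% on chromosome 1. Among 1005 miRNA hairpins of RefSeq none lay in a 5-fluorouracil-only region, and 2, Mir375 and Mir9-3, lay in vehicle-only regions.

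The strongest regions of 1 list only were few, and most were present in at least 1 list from the younger mice. Above the 50th strength percentile there were 20 regions only after 5-fluorouracil and 99 only in vehicle. Of the 20, 7 were in both 8-week HSC lists, none was in both HSC lists without being in an HPC list, and 7 were in none of the 8-week lists. Of the 99, 50 were in both 8-week HSC lists, 24 were in both HSC lists and in neither HPC list, and 11 were in none. The 24 were singled out after their values were seen.

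The strongest region only after 5-fluorouracil lay at chr1:24612996-24613234, within 100 kb of the collagen gene Col19a1, with a fold enrichment of 18.9 and rank 9884 of 71363 by −log10 p. It ranked first by −log10 p in each of the 4 lists from 8 weeks, with fold enrichments between 26.6 and 31.6, and no vehicle region overlapped it. This stretch of chromosome 1 is known to hold a nuclear copy of mitochondrial DNA, and the part of mitochondrial reads in its signal was not tested. Regions at Arpp21, a phosphoprotein of neurons and lymphocytes, with 24.9, and at Csf2rb2 and Ypel2 were likewise in all 4 of the 8-week lists and missing from vehicle. Lgmn, a lysosomal protease, carried a region of fold enrichment 22.2 at chr12:102426221-102426830, inside the gene body, that was in none of the other 5 lists. The same was true of a region of 17.4 in Scp2, a sterol carrier protein, at chr4:108058114-108058663. A region of 21.9 in Gldc, a mitochondrial enzyme that breaks down glycine, was also in the 8-week wild-type HSC list.

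The strongest vehicle-only region lay near Lonrf1 at chr8:36183929-36184451, with a fold enrichment of 20.3 and rank 4755 of 80100. It was in all 4 of the 8-week lists, as were those in Kat6b, a histone acetyltransferase, with 25.2, and in Ptpra, a receptor tyrosine phosphatase, with 21.4. Others were in both HSC lists from 8 weeks and in neither HPC list. They include the region at chrX:70184342-70185075, more than 100 kb from any protein-coding gene, with 30.8, a region near Pappa2, a protease of the insulin-like growth factor system, with 22.6, and a region near the homeobox gene Meox1 with 15.7. Further regions of this kind lay in Glis1 and Gli2, zinc finger transcription factors of the Krüppel type, and in Myo16. The same holds for the region at the start of Zim1, and for regions near Lmx1a and Aldh1a2, an enzyme of retinoic acid synthesis. In the order of these genes the fold enrichments were 18.2, 14.6, 16.2, 16.6, 14.4 and 13.9.

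The second comparison asked whether regions of 1 list only were sites of HSC or of progenitors in younger mice. Regions only after 5-fluorouracil were found in the wild-type HSC list in 2.37% of cases (1.95 to 2.89), and vehicle-only regions in 4.63% (4.29 to 5.01). In knockout HSC the shares were 6.77% (6.03 to 7.59) and 11.8% (11.2 to 12.3). In wild-type HPC the order was the other way, with 30.0% (28.6 to 31.4) of 5-fluorouracil-only and 27.8% (27.1 to 28.6) of vehicle-only regions, and in knockout HPC with 19.5% (18.3 to 20.8) and 16.8% (16.2 to 17.5). Of shared regions between 56.4% and 74.7% were found in each of these lists. The 8-week lists differ in length, in pooled samples and in age from the 16-week ones, so only the 2 classes are set side by side, not the lists.

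Vehicle-only regions were stronger, and stronger regions are found more often, so the shares were also taken within the 4 strength bands, with band 1 the weakest. In band 2, wild-type HSC held 4.63% (2.67 to 7.92) of 259 regions only after 5-fluorouracil and 13.9% (12.5 to 15.5) of 2097 vehicle-only regions. Knockout HSC held 16.6% (12.6 to 21.6) and 32.6% (30.6 to 34.7), while wild-type HPC held 40.5% (34.7 to 46.6) and 43.5% (41.4 to 45.6). In band 3 knockout HSC held 5 of 15 regions only after 5-fluorouracil and 79 of 95 vehicle-only regions. In band 1 wild-type HPC held 29.2% (27.7 to 30.7) of 3723 regions only after 5-fluorouracil and 24.7% (23.9 to 25.5) of 10797 vehicle-only regions. At equal number the order in the HPC lists turned round. Wild-type HPC held 30.0% (28.9 to 31.2) of 6373 regions only after 5-fluorouracil and 34.6% (33.4 to 35.7) of 6712 vehicle-only regions. In wild-type HSC the shares were 2.15% (1.82 to 2.54) and 7.88% (7.26 to 8.55). The 2 classes are less alike in strength at equal number. Their median fold enrichments were 4.65 after 5-fluorouracil and 6.55 in vehicle, against 4.72 and 5.22 as deposited. The part of strength in these shares was not tested. With windows around summits in place of whole regions, the wild-type HSC shares were 3.62% and 3.51%.

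**Figure D2:**
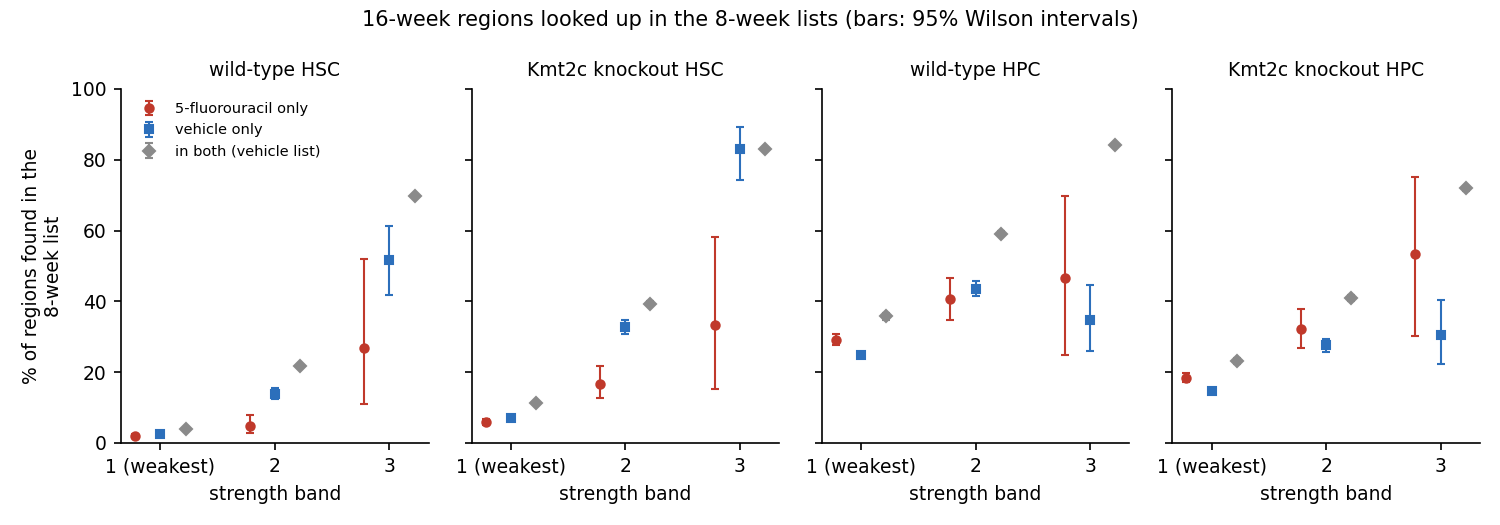
Share of 16-week regions (y axis, percent, with 95% Wilson intervals) found in each 8-week list, by strength band within the 16-week list (x axis, the strongest band left out because it held 5 regions only after 5-fluorouracil and 4 only in vehicle). Red circles are 5-fluorouracil-only, blue squares vehicle-only and grey diamonds shared regions of the vehicle list. In band 2 the HSC panels put 5-fluorouracil-only regions at 4.63% and 16.6% and vehicle-only ones at 13.9% and 32.6%.

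To set HSC against HPC directly, the wild-type HPC list was limited to the 40073 strongest regions, the length of the wild-type HSC list, and regions found in exactly 1 of these lists were counted. Of 416 such regions only after 5-fluorouracil, 12.3% (9.45 to 15.8) were HSC regions and the others HPC regions. Of 1357 vehicle-only regions 29.7% (27.3 to 32.2) were HSC regions, and of the shared regions of the 5-fluorouracil list 58.1%. With the 16-week lists at equal number the share was 10.6% (8.51 to 13.2) of 658 regions only after 5-fluorouracil. It was 36.6% (33.6 to 39.7) of 945 vehicle-only regions, but there the 2 classes are less alike in strength, as given above. Within band 1 of the lists as deposited the shares were 11.8% (8.89 to 15.5) and 21.2% (18.6 to 24.0). In band 2 they were 5 of 45 regions and 181 of 427 regions, or 42.4% (37.8 to 47.1). Shared regions in bands 1 and 2 were at 32.9% and 51.1% in the 5-fluorouracil list. In the vehicle list they were at 18.3% and 44.5%, close to vehicle-only regions of the same band in these 2 bands. In band 3 they were not close, with 32 of 36 vehicle-only regions, or 88.9% (74.7 to 95.6), against 67.7% (66.6 to 68.8) of shared vehicle regions. Of regions only after 5-fluorouracil 2 of 6 were HSC regions there, and 69.1% of shared regions of that list. Strength was not matched within a band. Vehicle-only and shared vehicle regions had median fold enrichments of 4.89 and 5.49 in band 1, and median strength percentiles of 31.4 and 38.3 in band 2. In band 1 the median percentile was 6.73 for 5-fluorouracil-only regions and 14.1 for shared regions of that list.

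The shared regions, which the overlap rule does not separate, were compared by their ranks. The rank shift is the strength rank after 5-fluorouracil minus that in vehicle, on a scale where 100 points is the strongest region, so a positive value means a higher place after 5-fluorouracil. By −log10 p the median shift of all 63653 shared regions was 0.16 points. It was 2.97 for 3815 regions in both HPC lists and no 8-week HSC list, of which 63.2% ranked higher after 5-fluorouracil. It was −1.75 for 1707 regions in both HSC lists and no HPC list, of which 41.4% ranked higher after 5-fluorouracil. By fold enrichment the shift was 3.40 for the HPC regions and −0.84 for the HSC regions, against 1.38 for all. The HPC regions were weaker, with a mean strength percentile of 29.5 against 58.6 for the HSC regions. Within strength bands by −log10 p, the medians of the HPC regions were 3.83, 2.73 and 2.06 in bands 1, 2 and 3, and those of the HSC regions −8.06, −4.09 and −1.93. By fold enrichment they were 6.02, 2.58 and −0.12 for the HPC regions and 4.40, 0.65 and −2.63 for the HSC regions. Under either measure the HPC regions lay above the HSC regions in each of these bands, although the sign of the shift depended on the measure. All shared regions had 1.79, 0.38 and 0.14 in these bands by −log10 p, and 5.14, 2.24 and 1.42 by fold enrichment, so in band 3 by fold enrichment the HPC regions lay below all regions. Regions in all 4 of the 8-week lists had 8.02, 5.12 and 2.62 by fold enrichment, above the HPC regions in each band, and −2.68, −1.31 and −0.02 by −log10 p. In band 4 by fold enrichment the order was the other way, with −4.77 for 45 HPC regions and −0.42 for 546 HSC regions.

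**Figure D3:**
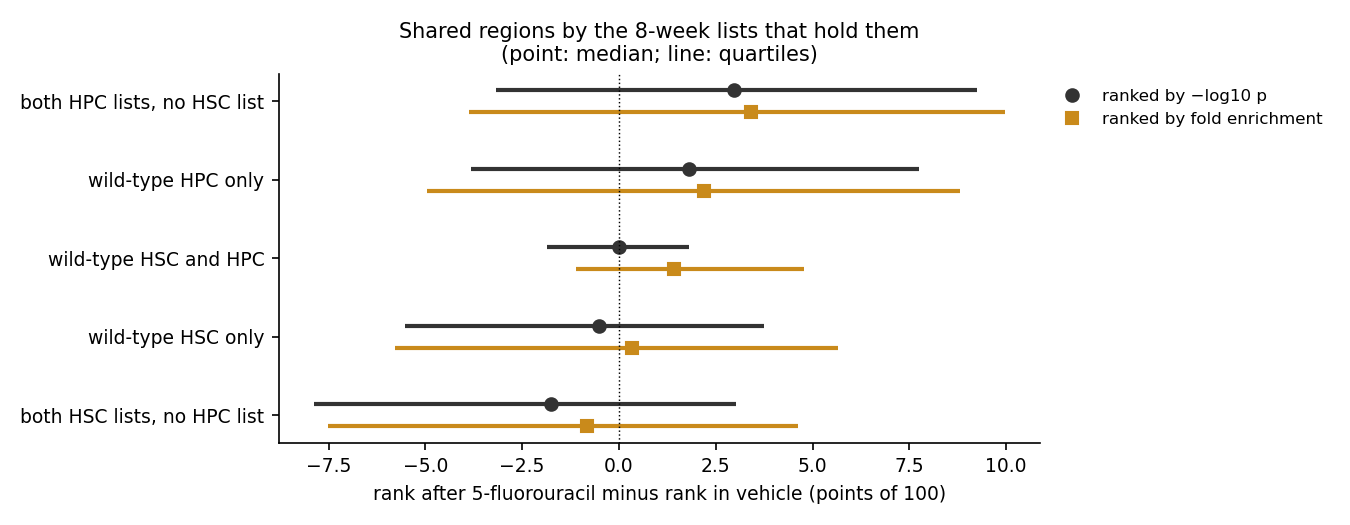
Rank shift of shared regions (x axis, points of 100, positive for stronger after 5-fluorouracil) by the 8-week lists that hold them (rows), with the median as a point and the lower and upper quartile as the ends of a line, for ranking by −log10 p and by fold enrichment. The top row, regions of both HPC lists, has medians of 2.97 and 3.40, and the bottom row, regions of both HSC lists, has −1.75 and −0.84.

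Single shared regions differed by up to 73.0 points in rank. A region near Tm2d1 at chr4:98340009-98340887, stronger in vehicle, had a fold enrichment of 1.74 after 5-fluorouracil and 22.3 in vehicle. A region inside Tnrc6a, a partner of Argonaute in gene silencing by microRNAs, had 18.5 after 5-fluorouracil and 5.83 in vehicle. One inside Klf7, a Krüppel-like transcription factor, had 16.0 after 5-fluorouracil and 6.16 in vehicle. A region near Tbk1, a kinase that switches on interferon genes, had 13.4 after 5-fluorouracil and 5.35 in vehicle and was in none of the 8-week lists. A region in Prex1, an activator of Rac, had the same fold enrichment, 24.8 after 5-fluorouracil and 24.7 in vehicle, but −log10 p of 104 and 3726. The measures of the deposited lists thus do not always move together.

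The fourth comparison counted, near each gene, the regions of 1 list only. A region was given to the nearest protein-coding gene body within 100 kb, a rule that favours long genes and carries no information on the target of a region. At equal number 2941 of 21887 genes (13.4%) had more 5-fluorouracil-only than vehicle-only regions and 3107 (14.2%) had more vehicle-only regions. These shares are over all genes, of which 16789 had a locus and could be counted. A gene with more loci has more chances to be counted on either side. The genes with the largest net number after 5-fluorouracil included Sox5, a transcription factor gene, with 10 regions only after 5-fluorouracil and 1 only in vehicle, and Etv6, an ETS repressor that adult HSC need, with 10 and 2. They also included Sgms1, a sphingomyelin synthase, with 10 and 1, Itpr2, a calcium channel of the endoplasmic reticulum, with 8 and 0, and Nrip1, a corepressor of nuclear receptors, with 8 and 1. Pde10a, a phosphodiesterase, had 7 and 0, while Nrf1, a transcription factor of mitochondrial genes, and Fam107b had 6 and 0 each. As deposited, Itpr2 had 5 and 0, Sox5 had 9 and 2 and Nrip1 had 3 and 2. Etv6 had 6 regions only after 5-fluorouracil and 10 only in vehicle. Without the weakest 25% of each list, Itpr2 and Nrip1 had more vehicle-only regions, by 3 and by 1.

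These regions were weak. The 10 regions near Sox5 had fold enrichments between 4.15 and 9.58, and 1 of the 10 was in an 8-week list, that of HPC of either genotype. Of the 8 near Itpr2, between 3.38 and 6.72, 4 were in wild-type HPC and 1 in wild-type HSC. Of the 6 near Fam107b 3 were in wild-type HPC, and of the 6 near Nrf1 none was in an 8-week list. Among genes with at least 10 loci, those with the highest share only after 5-fluorouracil were Pdgfra, a growth factor receptor of mesenchymal cells, with 4 of 11 loci, Robo1, a receptor for Slit guidance proteins, with 6 of 18, and Tnfrsf11a, the receptor RANK, with 4 of 12. Next came Pced1b with 4 of 13, and the glucocorticoid receptor gene Nr3c1 and Spry4, an inhibitor of receptor tyrosine kinases, with 3 of 10 each.

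On the vehicle side, the net numbers were largest at the following genes. Erc2, a scaffold of the presynaptic zone, and Nrxn3, a synaptic adhesion protein, had 0 regions only after 5-fluorouracil and 8 only in vehicle. The homeobox gene Lmx1a had 0 and 7, Rbfox1, a splicing factor of neurons, 1 and 7, and Auts2 2 and 8. Fhod3, a formin of heart muscle, Myo16 and Gli2, a transcription factor of Hedgehog signalling, had 0 and 6 each. All 8 had 0 regions only after 5-fluorouracil in the lists as deposited. The 7 regions near Lmx1a had fold enrichments between 4.90 and 14.4, of which 3 were in wild-type HSC, 2 in knockout HSC and 2 in each HPC list. Of the 6 near Gli2, between 6.24 and 14.6, 4 were in knockout HSC and 1 in wild-type HPC. Of the 8 near Erc2 1 was in an 8-week list. By share of loci, as deposited, Ebf1, the B cell commitment factor, led with 8 of 12 loci only in vehicle and 0 only after 5-fluorouracil, followed by Erc2 with 11 of 17, Col26a1 with 7 of 11, and Pknox2 and Rspo2, a ligand that enhances Wnt signalling, with 6 of 10 each, Rspo2 also having 1 locus only after 5-fluorouracil.

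**Figure D4:**
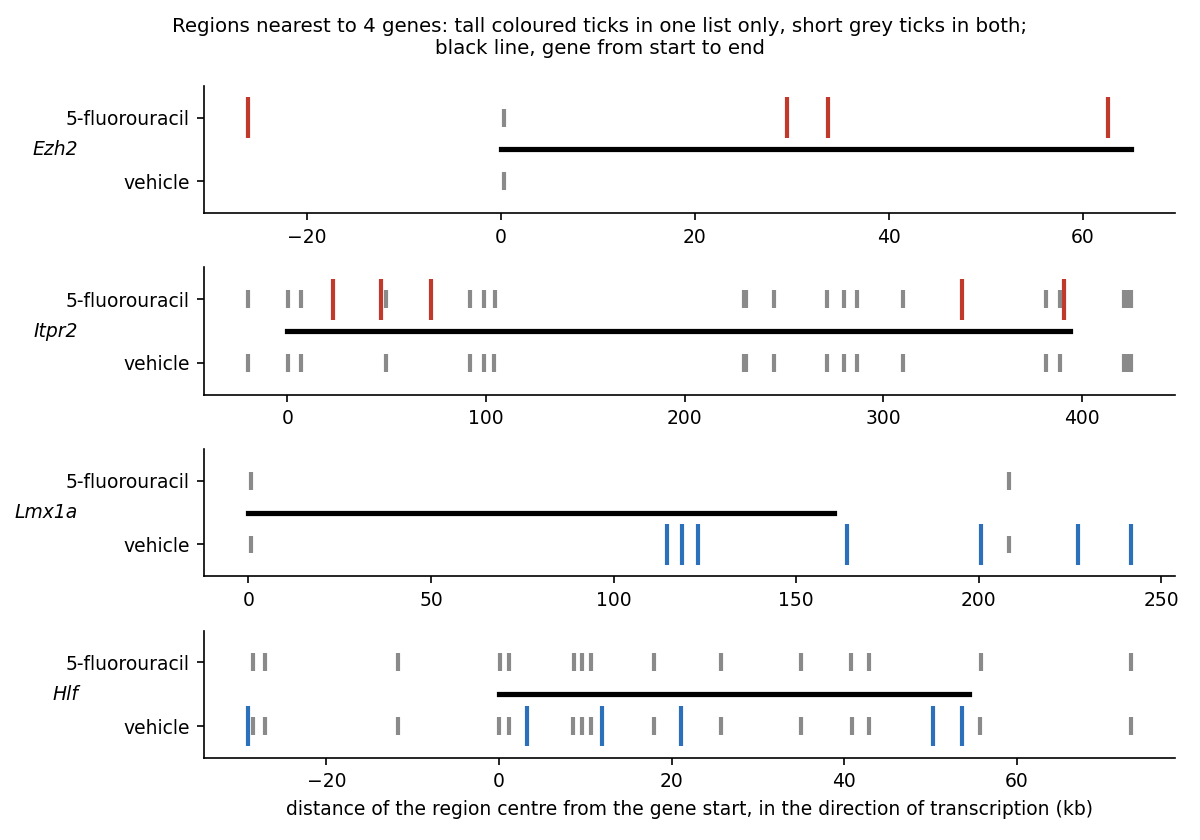
Regions nearest to Ezh2, Itpr2, Lmx1a and Hlf as deposited, by distance of the region centre from the gene start (x axis, kb), 5-fluorouracil above vehicle. Ezh2 and Itpr2 carry 4 and 5 regions of the 5-fluorouracil list only, Lmx1a and Hlf 7 and 6 of the vehicle list only, and the grey ticks at each gene start are in both.

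Genes of stem cell identity were touched from both sides. Of 40 such genes, 15 had more regions only after 5-fluorouracil and 7 more only in vehicle at equal number. They had 67 and 41 such regions in all. As deposited the split was 6 and 20, so the direction for the list depends on list length. Over all genes the shares at equal number were 13.4% and 14.2%. The 40 genes hold 562 loci, against 77960 for the 21887 genes. As deposited 6.41% of their loci were only after 5-fluorouracil and 15.8% only in vehicle, against 4.66% and 15.0% over all genes. Mecom had 9 and 4 regions at equal number and 4 and 11 as deposited. Hlf, a transcription factor that marks HSC, had 1 region only after 5-fluorouracil and 4 only in vehicle at equal number, and 0 and 6 as deposited. The 6 had fold enrichments between 2.54 and 3.28, and the region at the Hlf start was in both lists. Fli1, an ETS factor of HSC and megakaryocytes, had 2 and 5. Of 29 genes of HSC ageing and platelet bias 8 had more regions only after 5-fluorouracil, such as Itgb3, a platelet integrin, with 3 and 0, and 6 more only in vehicle, such as Gpr183 and Neo1 with 0 and 2 each. As deposited the split of the ageing list was 1 and 13.

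By gene count the AP-1 and niche lists leaned towards 5-fluorouracil at equal number. Of 26 AP-1 and immediate early genes 10 had more regions only after 5-fluorouracil and 2 more only in vehicle. Over all genes the shares were 13.4% and 14.2%. The AP-1 list had 19 and 5 regions in all, against 5813 and 6001 over all genes. Of its 227 loci as deposited, 3.08% were only after 5-fluorouracil and 7.49% only in vehicle. Both lay below the 4.66% and 15.0% over all genes. Of the 291 niche loci the shares were 6.87% and 11.7%. Bach2, a repressor related to AP-1, had 4 and 0, and Fosl2, a FOS-family subunit of AP-1, had 3 and 0, including its promoter. Jun had 2 and 0 at equal number but 0 and 2 as deposited, and Atf3 had 0 and 1. Of 30 genes of niche adhesion and homing 13 had more only after 5-fluorouracil, such as the receptor gene Notch2 and the TGF-beta mediator Smad3 with 3 and 0 each, and 5 more only in vehicle, such as the integrin gene Itgal with 0 and 2. As deposited the splits were 5 and 8 for the AP-1 list, and 7 and 16 for the niche list, the side of the longer list.

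Genes that handle the drug or answer to it were split. Over all genes at equal number, 13.4% had more regions only after 5-fluorouracil and 14.2% more only in vehicle. Of 31 genes of fluoropyrimidine metabolism and efflux 7 had more regions only after 5-fluorouracil and 4 more only in vehicle. Those with more after 5-fluorouracil included Abcg2, the efflux pump of the HSC side population, and Upb1, an enzyme of pyrimidine breakdown, with 2 and 0 each, the pump genes Abcb1a with 1 and 0 and Abcc4 with 3 and 2, and Rrm1 and Uck2 with 1 and 0 each. The 4 were the uridine phosphorylase genes Upp2 with 0 and 2 and Upp1 with 0 and 1, and Abcc3 and Uckl1 with 0 and 1 each. Of 30 genes of the p53 response and apoptosis 4 had more after 5-fluorouracil and 5 more in vehicle, with Cdkn1a, the p53 target that halts the cell cycle, at 0 and 1. Of 30 DNA repair genes 4 and 1 did, Smug1, a uracil glycosylase, with 3 and 0. Of 32 cell cycle genes 8 and 3 did, Cdkn1b, an inhibitor that holds HSC in quiescence, with 3 and 0. As deposited the splits were 4 and 9 for the fluoropyrimidine list, 2 and 9 for the p53 list, 2 and 4 for DNA repair and 2 and 8 for the cell cycle, so the direction of 3 of these 4 lists turned.

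Chromatin genes also went both ways. Of 29 genes of Polycomb and DNA methylation 8 had more regions only after 5-fluorouracil and 6 more only in vehicle. Over all genes the shares were 13.4% and 14.2%. As deposited the split of the Polycomb list was 4 and 10, and without the weakest 25% of each list 0 and 9. Ezh2, the methyltransferase of Polycomb complexes, had 4 and 0 at equal number and as deposited, and 0 and 0 without the weakest 25%. It had 5 regions after 5-fluorouracil and 1 in vehicle, the shared one being its start, with a fold enrichment of 18.6 after 5-fluorouracil and 17.7 in vehicle. The 4 lay 29.5, 33.7 and 62.6 kb into the gene and 26.0 kb before it, had between 4.08 and 6.86, and were in none of the 8-week lists. Jarid2, a partner of the same complexes, had 0 and 4 at equal number and 0 and 7 as deposited. The demethylase gene Tet2 had 3 and 0, and the methyltransferase gene Dnmt1 2 and 0, while Asxl1 and Rbbp7 had 0 and 2 each. Of 24 genes of Kmt2 complexes and their partners 2 had more after 5-fluorouracil and 5 more in vehicle, none by more than 1 region.

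Among lineage lists, 6 of 25 erythroid and megakaryocyte genes had more regions only after 5-fluorouracil and none more only in vehicle at equal number. Car2, a carbonic anhydrase, had 2 and 0. Over all genes the shares were 13.4% and 14.2%. As deposited the erythroid and megakaryocyte split was 3 and 5. Of 25 myeloid progenitor genes 6 and 4 did, with the receptor gene Fcgr3 at 3 and 0 and Cebpa, the master factor of granulocytes, at 2 and 0. As deposited the myeloid split was 2 and 9. Of 25 lymphoid genes 8 and 8 did, and 2 and 17 as deposited, Foxp1 with 7 and 3 at equal number and Ebf1 with 0 and 3. For inflammation, 7 and 3 of 31 interferon genes did at equal number and 4 and 8 as deposited. At equal number so did 6 and 8 of 32 genes that act in NF-kB, TNF and interleukin-1 signalling, with Tnfaip3, a brake on NF-kB, at 2 and 0 and Il1rap, the shared chain of interleukin-1 receptors, at 0 and 3. The 3 regions in Il1rap had fold enrichments of 5.54, 7.59 and 9.36 and were in none of the 8-week lists. Of 26 genes of oxidative stress and hypoxia 2 and 4 did, Hif1a at 2 and 0 and Ppargc1a at 1 and 3. As deposited, and again without the weakest 25%, each of the 16 lists had more genes on the vehicle side than on that of 5-fluorouracil, as did all genes with 1319 and 5879, and with 648 and 4673. The lists differ in loci per gene, with 300 in the 25 lymphoid genes, 162 in the 25 myeloid genes and 169 in the 29 Polycomb genes. The 25 erythroid and megakaryocyte genes had 102. No list was tested.

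**Figure D5:**
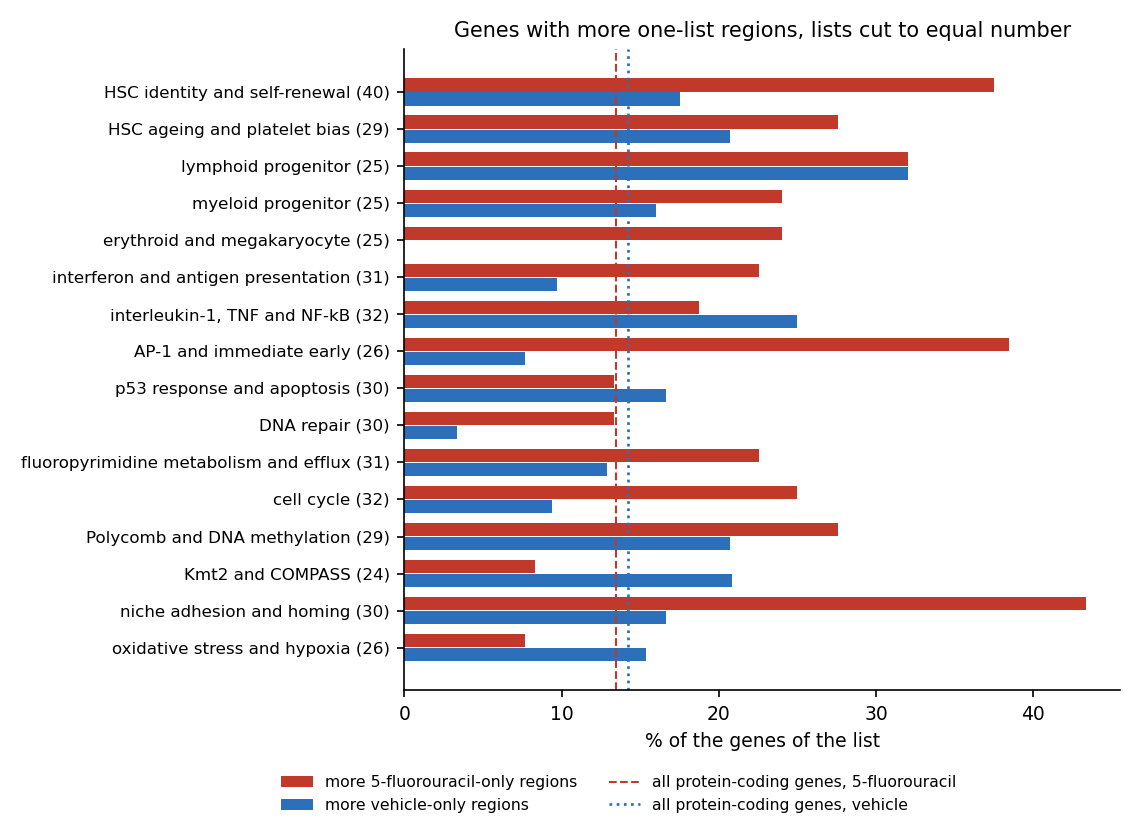
Share of genes (x axis, percent) with more regions only after 5-fluorouracil or only in vehicle at equal number, for 16 gene lists with their sizes, and for all protein-coding genes as lines at 13.4% and 14.2%. The AP-1 list has 10 and 2 of 26 genes, the niche list 13 and 5 of 30, and the lymphoid list 8 and 8 of 25.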

How the data were processed

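ATAC-seq libraries were made with Tn5 after a published protocol, per the labels' protocols, although RNA stands in the labels as the molecule extracted. Bowtie2, MACS2 and the build mm10, also called GRCm38, are named per the submitters' processing notes, without versions. The authors deposited 1 peak list per group, shared by all of its samples, and the pooling and filtering of reads are not described in these sources. Its deposited fold enrichment is a ratio to local background, its deposited −log10 p comes from the peak caller, and the deposited score and q-value were not used. Depth per sample is unknown.

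Rows that overlap were merged into regions, each with its highest fold enrichment and −log10 p (Python 3.11.15, pandas 2.3.3, scipy 1.17.1). Regions were compared by 1 bp of overlap, by rank within a list, and at the length of the shorter list. Genes and sequences came from RefSeq tables of GRCm38.p6, which hold no sequence for some genes. The 25 gene lists hold 553 symbols, of which 2 were not matched. The groups, members and gene lists were chosen with earlier results of these data known. Named genes followed a rule: per direction, those nearest to the 8 strongest regions with nothing of the other list within 1 kb, the 8 of largest net number, the 6 of highest share among genes with at least 10 loci, up to 2 per gene list and all net members of the fluoropyrimidine and Polycomb lists, and those at the 8 largest rank shifts. Some genes that the rule names are not reported here. No model was fitted and no p-value computed, since a group is 1 list. Wilson intervals at 95% treat regions as independent and cover counting error only. The code for overlap, merging and gene assignment was tested on simulated intervals. Alternatives changed the overlap, the unit, the threshold, the ranking and the gene rule.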

Additional observations from a re-analysis of the deposited data

How the results depend on the processing

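No paired analysis was possible because each group is a single pooled list whose columns carry no replicate, and for the same reason no replicate could be left out. With 200 bp windows around summits, of which there were 138751 after 5-fluorouracil and 154889 in vehicle, 12641 (9.11%) and 28706 (18.5%) were in 1 list only as deposited, and 19301 and 19556 at equal number. Without the weakest 25% of each list the counts of regions were 1366 (2.55%) and 7899 (13.1%), and 3475 and 3581. Asking for 50% of a region covered, for nothing within 1 kb or for a −log10 p of at least 3 left them within 1.5 times. Of the 20000 strongest, 6 after 5-fluorouracil and 4 in vehicle were missing from the other list, and of the 10000 of highest fold enrichment 6 in vehicle. With summit windows the shares of regions only after 5-fluorouracil found in wild-type HSC, knockout HSC, wild-type HPC and knockout HPC were 3.62%, 5.73%, 17.0% and 10.9%, and of vehicle-only ones 3.51%, 7.55%, 17.2% and 10.2%, so that the order in wild-type HSC and in wild-type HPC was no longer that of whole regions. At equal number the vehicle-only shares were 7.88%, 19.2%, 34.6% and 20.9%, so those in both HPC lists then exceeded the 30.0% and 19.4% of regions only after 5-fluorouracil. The share of 5-fluorouracil-only regions at a gene end was 7.55% at equal number. Ranked by fold enrichment, the median rank shift of wild-type HSC regions outside HPC was 0.35 in place of −0.51, and that of regions in both 1.42 in place of −0.01. Over all genes, 1319 had more 5-fluorouracil-only and 5879 more vehicle-only regions as deposited, and 648 and 4673 without the weakest 25%.

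Net numbers of these single genes changed sign. As deposited the net was −1 for Bcl2, Mdm4, Cbx8, Phc2, Ercc1 and Gclc, −2 for Ypel2, Kctd1, Jun and Foxp1, −3 for Bcl11a and Abcc4, −4 for Etv6 and −7 for Mecom. Without the weakest 25%, it was 1 for Col19a1, −1 for Mdm4, Dnmt3a, Abcc4, Smug1, Nrip1, Bach2, Cxcl2, Cebpa and Smad3, −2 for Notch2 and Abcg2, −3 for Itpr2, −4 for Bcl2 and −6 for Foxp1. The gene rule (nearest gene end) reversed none. Depth is unknown, and its part in these counts was not tested.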
